A study of Mus musculus with 24 samples.

Results

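Liver macrophages that had lost their source of the ligands BMP9 and BMP10 were compared with liver macrophages that had lost Smad4, and the genes whose response differed between both losses were identified. The comparison used 12 of the 24 RNA-seq libraries of the series, 3 in each of 4 groups. Bmp9/10-HSC-KO libraries came from macrophages of mice with floxed Gdf2 and Bmp10 genes (fl/fl for both) and Lrat-Cre, which deletes both ligand genes in hepatic stellate cells (HSCs), and the BMP9/10 control libraries came from control mice. Smad4FF cKO libraries came from macrophages of Smad4 fl/fl mice carrying Vav1-Cre, which acts in all hematopoietic cells and not in macrophages alone, and the Smad4FF libraries came from the control mice of that experiment. All mice were on a C57BL/6 background and 8 to 10 weeks old. The sort of the ligand experiment took F4/80+CD64+ cells that were also CD45+ and Ly6C-, and the cells of the Smad4 experiment are described as sorted liver macrophages. No treatment was given in either experiment. In the following, the groups are called ligand control, HSC-KO, Smad4 control and cKO. The study's methods describe the 3 libraries of a group as independent biological replicates, and the p-values measure the spread between them.

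BMP9 (encoded by Gdf2) and BMP10 are circulating ligands of the TGF-beta family that bind the type I receptor ALK1 (encoded by Acvrl1) on endothelial cells (ECs) and Kupffer cells (KCs), the resident macrophages of the liver sinusoid. The activated receptor phosphorylates Smad1, Smad5 and Smad8, which pair with the common partner Smad4 and enter the nucleus, where the inhibitor of DNA binding genes Id1 and Id3 are direct targets. Smad4 also serves TGF-beta and activin receptors, and BMP receptors can signal through routes that need no Smad4. KCs are known for clearing particles and aged red cells from portal blood, and when they are lost, monocytes enter the liver and take on KC genes.

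The difference tested for each gene was the log2 fold change of HSC-KO over ligand control minus the log2 fold change of cKO over Smad4 control. It was estimated in a single fit of edgeR's quasi-likelihood test to all 12 libraries, over 48337 gene symbols found once in both count tables. Each loss was also tested on its own 6 libraries. A gene was called when its Benjamini-Hochberg adjusted p was below 0.05 and its log2 value was above 1 or below -1. Levels are given as CPM (counts scaled for library size) for replicates 1, 2 and 3 of a group, which compares libraries for a gene and not genes with each other, and log2 values carry their standard error (SE).

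The libraries held between 60911527 and 110879155 counts, and replicates of a group correlated at 0.945 to 0.977. All 12 pan-macrophage markers were detected in every group, and 2 of them, Adgre1 and Lyz2, fell with Smad4 loss. Their sum was 34258 to 36030 CPM in ligand controls, 28662 to 31901 CPM in HSC-KO, 40181 to 46860 CPM in Smad4 controls and 25414 to 32634 CPM in cKO libraries, so it was lower without overlap after each loss. The experiments differed in EC RNA. Measured against sorted ECs of the same series by 12 pan-endothelial genes, EC RNA made up 0.377%, 1.97% and 1.34% of the ligand controls and 0.108%, 0.0976% and 0.456% of the HSC-KO libraries. It made up 14.4%, 3.92% and 13.2% of the Smad4 controls, of which replicate 2 stood apart, and 13.4%, 12.5% and 10.7% of the cKO libraries. Genes with a higher mean level in either group of sorted ECs than in all 4 macrophage groups were therefore set aside. This removed 36.8% of the genes tested and left 11472, of which 1882 exceeded the ECs in a single macrophage group. For the genes that remained, the level that the EC share alone would supply (the EC share multiplied by the level in sorted ECs) is given for the genes described in which it was a large part of the measured level in a group. Xist was above 10 CPM in 1 ligand control and 2 HSC-KO libraries and in none of the Smad4 libraries, so Xist was not balanced across the experiments. In bulk libraries, fewer cells of a type and less RNA per cell cannot be told apart.

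The deleted gene was checked first. Smad4 was at 41.1, 35.4 and 43.7 CPM in the Smad4 controls and at 17.1, 12.4 and 15.2 CPM in the cKO libraries, and it fell by 1.39 ± 0.16 on the log2 scale (adjusted p = 0.0023, edgeR's quasi-likelihood test). These groups did not overlap. EC RNA would supply 65.4% of the level left in the cKO libraries, and Smad4 belongs to the genes set aside. In the ligand experiment Smad4 was at 50.2, 53.4 and 35.4 CPM in controls and at 49.5, 44.7 and 45.2 CPM in HSC-KO libraries. The ligand genes themselves are made in HSCs and gave little signal in macrophages, since Bmp10 did not exceed 0.17 CPM in any library and Gdf2 did not exceed 3.35 CPM. The receptor gene Acvrl1 was present in all groups at 129.6 to 207 CPM and passed in neither comparison, with log2 fold changes of 0.08 with ligand loss and -0.24 with Smad4 loss.

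Of the genes not set aside, 332 differed between both losses, which was 2.89% of those tested. The fold change was higher with ligand loss for 201 genes (1.75%) and lower for 131 (1.14%). Counted over all 18149 genes tested, set aside or not, 473 differed (2.61%), 258 higher (1.42%) and 215 lower (1.18%), and of the genes set aside 2.11% did. The balance of directions changed with the scaling, with 234 higher and 240 lower by DESeq2 size factors and 209 higher and 253 lower by library size alone. Ligand loss by itself called 1394 of these genes (13.6%; 749 higher, 7.29%, and 645 lower, 6.28%), and Smad4 loss called 790 (7.25%; 400 higher, 3.67%, and 390 lower, 3.58%). Over all genes, ligand loss called 1881 (11.6%; 6.29% higher and 5.3% lower) and Smad4 loss called 949 (5.44%; 2.78% higher and 2.66% lower). Of the 857 genes called with ligand loss and not with Smad4 loss, 161 (18.8%) differed between the losses, and of the 274 genes called with Smad4 loss and not with ligand loss, 50 (18.2%) did. Most genes called in a single experiment were thus not shown to differ, and 84.8% of the 857 genes and 77.7% of the 274 genes had the same sign in the other experiment, beside 66.7% of the 8391 genes called in neither. Of the 492 genes called in both, 75 (15.2%) differed and 489 had the same direction. The remaining genes that differed were called in neither comparison by itself or were not tested in both. Some genes entered these counts through the group in which they were high. Of the 332, 63 exceeded the ECs in a single macrophage group, and these included 25 of the 161 through the HSC-KO libraries and 10 of the 50 through the cKO libraries. With genes set aside against the mean of the 4 macrophage groups, a rule chosen after seeing the data, 276 of the 332, 137 of the 161, 40 of the 50 and 63 of the 75 genes were left.

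**Figure D1:**
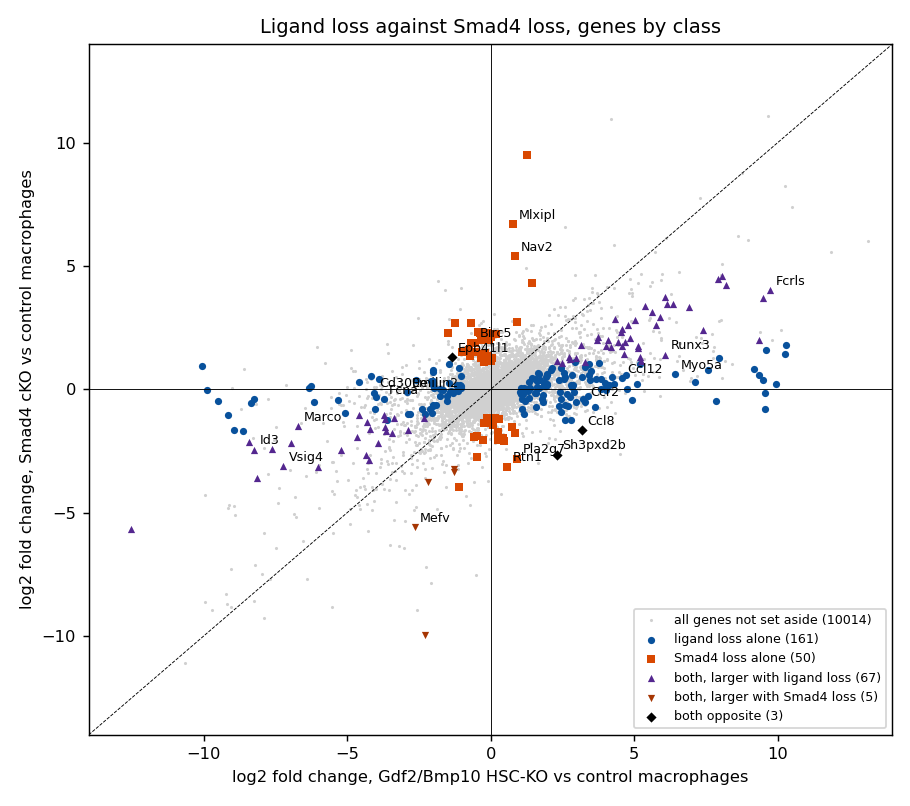
Log2 fold change with ligand loss (x axis) against log2 fold change with Smad4 loss (y axis), 1 point per gene not set aside, with 20 genes labelled and the genes that differed coloured by the comparison that called them. The 161 genes called with ligand loss alone include 96 that lie within 0.5 of the horizontal zero line, the 50 called with Smad4 loss alone include 30 that lie within 0.5 of the vertical zero line, and the 3 genes called in opposite directions lie in the upper left or lower right.

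The 161 genes that responded to ligand loss without a call for Smad4 loss comprised 104 that rose and 57 that fell. Their median size of change was 2.56 on the log2 scale with ligand loss and 0.41 with Smad4 loss, and 96 of them had a Smad4 fold change smaller than 0.5 in size. A missing call does not show that a gene did not respond. The 95% interval of the Smad4 fold change lay within -1 and 1 for 64 of the 161 genes, and 99 of them had the same sign in both experiments. In 29 of these genes the control means of the experiments were more than 4-fold apart, and 33 had a higher level in whole liver than in macrophages. A further 101 genes of this kind were among those set aside. Among the 161, Kctd12 had 0 counts in 3 ligand controls and in 1 cKO library and between 116 and 260.3 CPM in the other libraries, and it shares its strand with an overlapping gene.

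Of 21 antigen presentation genes not set aside, 8 rose and 1 fell with ligand loss, and 1 rose and 2 fell with Smad4 loss. Over all genes not set aside, the shares were 7.29% and 6.28% with ligand loss, 3.67% and 3.58% with Smad4 loss, and 2.89% differed. The fold change was higher with ligand loss for 6 of the 21 (H2-Aa, H2-Ab1, H2-Eb1, H2-Oa, Cd74 and Ciita) and lower for none. These 6 are known for the MHC class II pathway, and they were grouped as class II genes after their values were seen. The list's median log2 fold change was 0.80 with ligand loss and -0.01 with Smad4 loss, beside 0.03 and -0.01 over all genes not set aside. H2-Aa and H2-Ab1 encode the chains of the class II molecule I-A, H2-Eb1 encodes the beta chain of I-E, Cd74 encodes the invariant chain that escorts class II molecules to the endosome, and Ciita encodes the transactivator that switches the class II genes on.

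The promoters of H2-Aa and H2-Eb1 are printed because class II promoters are known to carry a Y box, which binds NF-Y, near the start site. The sequences are from RefSeq, build GRCm38.p6, and run from 250 bases before to 50 bases after the start of the gene at chr17:34287774-34288073 (minus strand) and chr17:34305617-34305916 (plus strand). Capitals mark the Y box letters CTGATTGG, searched on both strands.
H2-Aa: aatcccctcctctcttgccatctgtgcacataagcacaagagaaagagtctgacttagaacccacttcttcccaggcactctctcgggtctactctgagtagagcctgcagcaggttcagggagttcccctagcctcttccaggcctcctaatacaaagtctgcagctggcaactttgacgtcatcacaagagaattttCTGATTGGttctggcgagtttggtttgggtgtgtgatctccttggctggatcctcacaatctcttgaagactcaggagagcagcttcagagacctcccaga
H2-Eb1: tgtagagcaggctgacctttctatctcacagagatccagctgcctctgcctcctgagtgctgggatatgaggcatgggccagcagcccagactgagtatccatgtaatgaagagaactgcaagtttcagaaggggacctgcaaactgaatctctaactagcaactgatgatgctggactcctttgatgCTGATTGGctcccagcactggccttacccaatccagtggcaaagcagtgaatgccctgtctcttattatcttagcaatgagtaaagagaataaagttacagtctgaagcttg
The match began at position -51 in H2-Aa and at -62 in H2-Eb1, counted from the start site. These letters were found in 1346 of 32851 promoter windows of the same length (4.10%), and a match is a description of the sequence only.

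H2-Aa (chr17:34282744-34287823) was at 1865, 2024 and 2725 CPM in ligand controls and at 7835, 8495 and 8835 CPM in HSC-KO libraries. In the Smad4 experiment it was at 2101, 2905 and 3101 CPM in controls and at 2188, 2289 and 4134 CPM in cKO libraries. The HSC-KO libraries stood above all others, whereas the cKO and Smad4 control libraries overlapped. The log2 fold change of H2-Aa was 1.93 ± 0.19 with ligand loss (adjusted p = 0.00057) and 0.13 ± 0.27 with Smad4 loss (95% interval -0.51 to 0.76), and the difference was 1.85 ± 0.36 (adjusted p = 0.021). H2-Eb1 was at 1121, 1239.5 and 1616 CPM in ligand controls, at 5872, 7925 and 6983 CPM in HSC-KO, at 1349.7, 1965 and 2183 CPM in Smad4 controls and at 1823, 1800.2 and 3290.4 CPM in cKO libraries. Its groups showed the same arrangement, and its difference was 2.06 (adjusted p = 0.015). H2-Ab1 and Cd74 differed by 1.79 and 1.68 (adjusted p = 0.021 and 0.016), with log2 fold changes of 1.95 and 1.69 with ligand loss and of 0.20 and 0.05 with Smad4 loss. Cd74 overlaps another gene on its strand.

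Ciita was at 27.1, 31.3 and 31.1 CPM in ligand controls and at 132, 75.8 and 127 CPM in HSC-KO libraries, against 25.6, 35.5 and 40.9 CPM in Smad4 controls and 37.4, 22.3 and 49.2 CPM in cKO libraries. The transactivator thus rose with its targets after ligand loss (1.91) and its groups overlapped after Smad4 loss (0.13), with a difference of 1.82 (adjusted p = 0.036). H2-Oa, which encodes a chain of the class II peptide-loading modulator H2-O, differed by 3.11 (adjusted p = 0.032). Ifi30, the thiol reductase of class II antigen processing, is not on the list, was chosen after its values were seen and went in the other direction. It was at 726, 655 and 633 CPM against 146, 173 and 182 CPM with ligand loss and at 416, 399.9 and 459 CPM against 258, 252 and 274 CPM with Smad4 loss, a difference of -1.29 (adjusted p = 0.0016). H2-Ob, the partner chain of H2-Oa, rose in both experiments, by 2.09 and 1.24, and did not differ. The class I genes H2-D1, Tap1 and Psmb8 were called in neither comparison. H2-K2, a class I gene that is not on the list and has near-identical copies, rose with ligand loss (1.19) and differed by 1.71 (adjusted p = 0.012). The class II calls were not stable to all settings. None of the 6 was called with the summed EC markers as a covariate, and 2 were called without ligand control replicate 2, Smad4 control replicate 2, Smad4 control replicate 3 or cKO replicate 1. The EC markers summed to 52.8 to 279 CPM in ligand controls and 14.5 to 67.7 CPM in HSC-KO libraries. They summed to 548 to 2029 CPM in Smad4 controls and 1496 to 1866 CPM in cKO libraries. This covariate thus partly followed the groups, and a call lost with it cannot be told apart from a loss of power.

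Markers of other antigen-presenting cells were examined beside these genes. Conventional dendritic cell markers summed to 8.59 to 14.9 CPM in ligand controls and 13.5 to 44.6 CPM in HSC-KO libraries, and to 37.3 to 40.9 CPM in Smad4 controls and 25.7 to 47.9 CPM in cKO libraries. Flt3, a defining receptor of dendritic cells, stayed below 1 CPM, whereas Xcr1 had means of 1.27 and 7.74 CPM in the ligand experiment and of 3.90 and 1.62 CPM in the Smad4 experiment and differed between the losses. B cell markers summed to 118 to 174 CPM in ligand controls, 564 to 775 CPM in HSC-KO, 175 to 250 CPM in Smad4 controls and 293 to 393 CPM in cKO libraries. Ighm had a mean of 12.8 CPM in ligand controls and 466 CPM in HSC-KO libraries, and of 33.1 CPM in Smad4 controls and 80.2 CPM in cKO libraries, while Ms4a1 and Pax5 had means below 2 CPM in the ligand experiment. The part of these cells in the class II result was not tested.

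**Figure D2:**
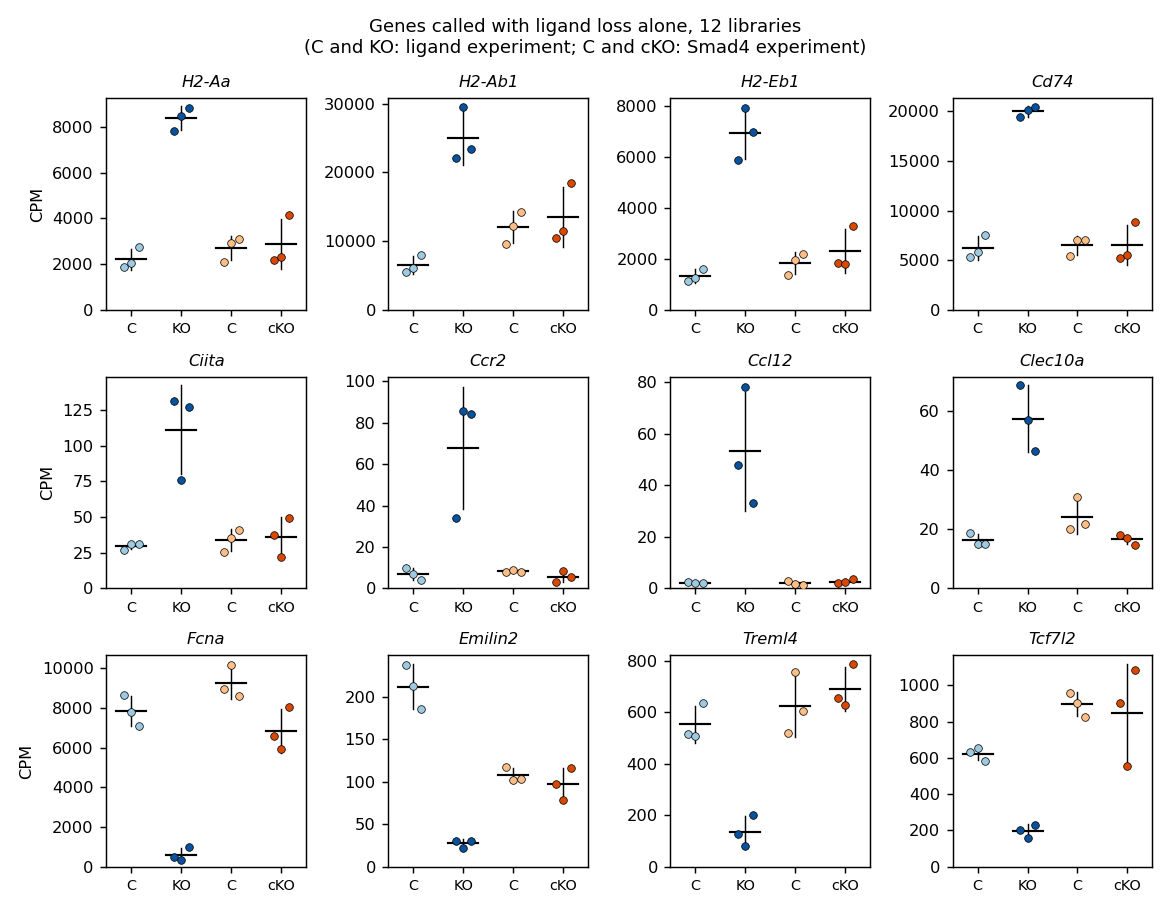
Level in CPM (y axis of each panel) in every library of the 4 groups for 12 genes that differed between the losses and were called with ligand loss alone, with points for libraries and bars for the mean ± SD of 3. H2-Aa, H2-Ab1, H2-Eb1, Cd74, Ciita, Ccr2, Ccl12 and Clec10a are high in the HSC-KO libraries, and Fcna, Emilin2, Treml4 and Tcf7l2 are low in them, while Smad4 control and cKO libraries lie closer together.

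Of 20 monocyte and recruited macrophage genes, 10 rose and 3 fell with ligand loss, and 4 rose and 2 fell with Smad4 loss. The fold change was higher with ligand loss for 4 of them (Ccr2, Clec10a, Fcrls and Ms4a7) and lower for 1 (Treml4), and the list's median log2 fold changes were 2.06 and 0.01. Of 27 chemokine and chemokine receptor genes, 14 rose and 3 fell with ligand loss against 3 and 5 with Smad4 loss, and the medians were 1.47 and 0.25. In all, 6 chemokine genes differed, counting Ccr2 again, 5 with a higher fold change after ligand loss (Ccl8, Ccl12, Cxcl16, Ccr1 and Ccr2) and 1 with a lower (Ccl24). Over all genes not set aside, 7.29% rose and 6.28% fell with ligand loss, 3.67% rose and 3.58% fell with Smad4 loss, and 2.89% differed. With the EC markers as a covariate, 2 of the 5 monocyte genes and 4 of the 6 chemokine genes were called.

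Ccr2, the receptor by which monocytes leave the bone marrow and enter tissue, was at 9.67, 7.09 and 4.1 CPM in ligand controls and at 33.8, 85.7 and 84.4 CPM in HSC-KO libraries. It was at 7.81, 8.78 and 7.82 CPM in Smad4 controls and at 3.09, 8.29 and 5.35 CPM in cKO libraries. All HSC-KO libraries lay above the other 9. The log2 fold changes were 3.29 ± 0.44 (adjusted p = 0.0021) and -0.50 (adjusted p = 0.46), and they differed by 3.84 ± 0.60 (adjusted p = 0.0067). Ccl12, a chemokine that binds CCR2, was at 2.36, 2.1 and 2.18 CPM in ligand controls and at 47.8, 78.4 and 33.3 CPM in HSC-KO libraries, against 2.86, 1.76 and 1.31 CPM in Smad4 controls and 1.86, 2.53 and 3.47 CPM in cKO libraries. Its rise of 4.59 ± 0.33 (adjusted p = 0.00017) had no counterpart past the threshold in the Smad4 experiment (0.45), and the difference was 4.19 ± 0.50 (adjusted p = 0.0013). Clec10a, a galactose-binding lectin, was at 18.7, 14.9 and 15 CPM in ligand controls, 69, 57.1 and 46.5 CPM in HSC-KO, 20.1, 30.9 and 22 CPM in Smad4 controls and 17.9, 17 and 14.8 CPM in cKO libraries. It differed by 2.39 (adjusted p = 0.0012).

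Cxcl16, the membrane-bound ligand of CXCR6, was a case in which neither comparison passed the size threshold and the difference did. Its level was 557, 653 and 580.4 CPM in ligand controls and 1196, 1062 and 1003 CPM in HSC-KO libraries, and 589, 547 and 571 CPM in Smad4 controls and 325, 342 and 333 CPM in cKO libraries. The groups separated upward in the ligand experiment (0.87) and downward in the Smad4 experiment (-0.73), with a difference of 1.65 ± 0.15 (adjusted p = 0.00036). Cx3cr1, the fractalkine receptor of monocytes, rose alike in both, by 6.10 and 6.14 (difference 0.01). Treml4, a receptor of late-stage monocytes and some macrophages, was at 516, 508 and 635 CPM in ligand controls and at 128, 82.6 and 199 CPM in HSC-KO libraries, while Smad4 controls held 518, 754 and 603 CPM and cKO libraries 656, 626 and 786 CPM. It fell by 2.01 with ligand loss and differed by -2.14 (adjusted p = 0.014).

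T and NK cell markers moved in the same direction as these chemokine genes. Summed over the list, they were at 19.7 to 44.6 CPM in ligand controls and 192 to 342 CPM in HSC-KO libraries, and at 78.1 to 181 CPM in Smad4 controls and 76.9 to 314 CPM in cKO libraries. Of the 12 markers, 8 rose with ligand loss, none was called with Smad4 loss, and Cd4, Ncr1 and Klrb1c differed between the losses. Neutrophil markers did not exceed 5.2 CPM. Platelet and megakaryocyte markers summed to 51.7 to 72.8 CPM in ligand controls, 563 to 989.6 CPM in HSC-KO, 58.6 to 88.1 CPM in Smad4 controls and 296 to 424 CPM in cKO libraries. Of the 7 tested, Pf4, a chemokine also on the chemokine list, was the 1 called, with means of 59.6 and 769.6 CPM in the ligand experiment and 68.3 and 359.9 CPM in the Smad4 experiment. The part of these cells in the chemokine result was not tested.

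Among the genes with the largest difference of those called with ligand loss alone, those that rose were Myo5a, Gpr183, Sema4d, Ccl12, Eps8 and Slamf7. Myo5a, an organelle-transporting myosin, was at 1.43, 0.461 and 0 CPM in ligand controls and at 61.3, 64 and 43.5 CPM in HSC-KO libraries, and at 0.559 to 1.47 CPM in all 6 Smad4 libraries. It rose by 6.42 with ligand loss and differed by 5.88 ± 1.04 (adjusted p = 0.014). Gpr183, a receptor for oxysterols that steers immune cell position, was at 1.14, 1.19 and 0.404 CPM against 24.1, 49.6 and 21.4 CPM in the ligand experiment and at 2.63, 2.39 and 1.92 CPM against 3.72, 2.33 and 1.9 CPM in the Smad4 experiment. The HSC-KO libraries again did not overlap with any other, and the difference was 4.92 (adjusted p = 0.0015). Gpr183 was at 11.8 CPM in control ECs, and it was not set aside only because of its level in the HSC-KO libraries. Myo5a and Eps8, at 1.49 and 2.64 CPM in HSC-KO ECs, also exceeded the ECs in the HSC-KO libraries alone. EC RNA would supply 53.6% of the Gpr183 level in Smad4 controls and 54.6% in cKO libraries. Slamf7, a receptor of the SLAM family on immune cells, was at 4.24, 2.07 and 2 CPM against 52.8, 38 and 44.6 CPM with ligand loss and at 4.18, 8.58 and 6.33 CPM against 4.99, 8.18 and 4.92 CPM with Smad4 loss, and it differed by 4.11 (adjusted p = 0.0014). Sema4d, a semaphorin of immune cells, and Eps8, an actin-capping protein, differed by 4.25 and 4.14 (adjusted p = 0.011 and 0.0094). Sema4d had a log2 fold change of 1.03 with Smad4 loss that missed the threshold (adjusted p = 0.11). With the EC markers as a covariate, Myo5a and Sema4d were no longer called (adjusted p = 0.086 and 0.12).

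Fcna fell with ligand loss alone. It encodes ficolin A, a lectin that starts the lectin pathway of complement. Fcna was at 8632, 7766 and 7093 CPM in ligand controls and at 479, 318 and 972 CPM in HSC-KO libraries, against 8948, 10146 and 8606 CPM in Smad4 controls and 6556, 5908 and 8046 CPM in cKO libraries. The HSC-KO libraries were far below the rest, and the cKO libraries lay below their controls by a smaller margin without passing the test. The fold change was -3.73 ± 0.41 with ligand loss (adjusted p = 0.00095) and -0.40 with Smad4 loss (adjusted p = 0.18), and the difference was -3.28 ± 0.46 (adjusted p = 0.0036). Emilin2, an extracellular matrix glycoprotein, was at 238, 212 and 186 CPM against 30.7, 22.3 and 30.1 CPM with ligand loss and at 118, 102 and 103 CPM against 97.5, 78.9 and 115 CPM with Smad4 loss. It fell by 2.93 ± 0.17 with ligand loss (adjusted p = 6.8e-05), had a log2 fold change of -0.11 with Smad4 loss, and differed by -2.78 ± 0.24 (adjusted p = 0.00026).

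Pram1, an adaptor protein of myeloid cells, fell from 35.3, 45.2 and 55.9 CPM to 0.116, 0.0534 and 0.0665 CPM with ligand loss. In the Smad4 experiment it was at 24.8, 14.6 and 22.3 CPM in controls and at 5.64, 7.21 and 16.2 CPM in cKO libraries, which overlapped (log2 fold change -1.05, adjusted p = 0.19). The difference was -8.07 ± 0.63 (adjusted p = 0.00016), and Pram1 overlaps another gene on its strand. Cd300e, an activating receptor of monocytes, was at 256, 331 and 362 CPM against 7.78, 7.8 and 41.4 CPM with ligand loss and at 146, 177 and 192 CPM against 88.1, 109 and 257 CPM with Smad4 loss, a difference of -3.87 (adjusted p = 0.034). Pdgfrl, which resembles the platelet-derived growth factor receptor, was at 12.3, 15.5 and 15.7 CPM against 0.289, 0.769 and 1.56 CPM and at 6.39, 7.77 and 10.7 CPM against 5.38, 3.52 and 5.09 CPM, and differed by -3.21 (adjusted p = 0.021). Both calls depended on single libraries. Cd300e had an adjusted p of 0.057 to 0.074 without ligand control replicate 2 or 3, HSC-KO replicate 1 or 2, any of the Smad4 control replicates or cKO replicate 3, and Pdgfrl had 0.054 and 0.053 without HSC-KO replicate 2 and cKO replicate 1 and a value just above 0.05 without Smad4 control replicate 2. Mup11, a major urinary protein gene with near-identical copies whose counts are therefore uncertain, was at 477 CPM in whole liver and at 4.93, 19.6 and 2.95 CPM in ligand controls, and had 0, 3 and 0 counts in HSC-KO libraries. In the Smad4 experiment it was at 5.45, 19.9 and 10.2 CPM against 3.31, 16.4 and 4.92 CPM, which overlapped. The difference was called (adjusted p = 0.011), and its size is not given because it rests on 3 counts. With the EC markers as a covariate, Cd300e, Pdgfrl and Mup11 were not called (adjusted p = 0.23, 0.2 and 0.13).

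Msr1 and Slc48a1 fell with ligand loss alone. Msr1, the class A scavenger receptor, was at 294, 249 and 237 CPM in ligand controls and at 106, 98.4 and 93.2 CPM in HSC-KO libraries, and at 227, 195 and 187 CPM in Smad4 controls and 179, 157 and 233 CPM in cKO libraries. It fell by 1.39 in the first comparison, overlapped in the other, and differed by -1.28 (adjusted p = 0.0099). Slc48a1, which carries heme out of the phagolysosome, was at 464, 509 and 420.1 CPM against 254, 175 and 192 CPM with ligand loss and at 421, 385 and 349 CPM against 334, 489 and 397 CPM with Smad4 loss, a difference of -1.24 (adjusted p = 0.021). It was the single gene of 21 iron and heme handling genes that differed, although 5 of the 21 fell with ligand loss and 1 with Smad4 loss. Over all genes not set aside, 2.89% differed, 6.28% fell with ligand loss and 3.58% fell with Smad4 loss. Erythroid markers summed to 36.4 to 63.3 CPM in ligand controls and 6.44 to 14.3 CPM in HSC-KO libraries, and to 35.4 to 106 CPM in Smad4 controls and 16.7 to 42.0 CPM in cKO libraries. Of 6 erythroid markers tested, 5 fell with ligand loss and none was called with Smad4 loss, and their part in the heme result was not tested. In the list of phagocytosis, TAM and scavenger receptors, 8 of 23 genes fell and 2 rose with ligand loss and 6 fell with Smad4 loss, and 1 had a higher difference and 4 a lower one (Msr1, and Marco, Timd4 and Clec1b, which were called with both losses).

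Among 33 transcription factors of the macrophage lineage, 3 differed, of which Rbpj and Runx3 were higher after ligand loss and Id3 lower. Of all genes not set aside, 2.89% differed. Rbpj, at 17.0 CPM in control ECs, exceeded the ECs in the HSC-KO libraries alone. Rbpj, the DNA-binding effector of Notch, was at 17.4, 13.5 and 9.39 CPM against 45, 64.2 and 46.3 CPM with ligand loss and at 12.8, 5.87 and 10.2 CPM against 9.49, 9.34 and 12.8 CPM with Smad4 loss. It differed by 1.82 (adjusted p = 0.036), with HSC-KO libraries above all others. Lists of transcription factors that fell with ligand loss alone, with Smad4 loss alone or with both were defined by the study on these libraries, so their direction is no independent evidence. Of its 29 factors for ligand loss alone, 6 differed between the losses, of which 5 (Erg, Hic1, Six5, Smad6 and Tcf7l1) were among the 18 set aside. Of the 11 not set aside, 10 fell with ligand loss here, and 1, Tcf7l2, differed. Tcf7l2, a DNA-binding effector of Wnt signalling, was at 631, 655 and 585 CPM against 203, 157 and 231 CPM with ligand loss and at 955, 903 and 824 CPM against 902, 554 and 1085 CPM with Smad4 loss, a difference of -1.57 (adjusted p = 0.021). Of 12 factors for Smad4 loss alone that were not set aside, 2 differed (Gm13212 and Pou3f1), and of 15 such factors for both losses, 3 differed (Id3, Thrb and Zfp532). Zfp532, at 25.6 CPM in HSC-KO ECs, exceeded the ECs in the ligand controls alone, and EC RNA would supply 56.1% of its level in cKO libraries. Rxra, the partner of many nuclear receptors, fell by 1.44 with ligand loss (adjusted p = 0.0017) and had a log2 fold change of -0.43 with Smad4 loss, but its difference of -0.97 was below the size threshold.

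Single genes of other functions had a higher fold change with ligand loss. Tnfsf13b, which encodes the B cell survival factor BAFF, was at 0.711, 0.606 and 0.808 CPM in ligand controls and at 5.57, 7.97 and 6.3 CPM in HSC-KO libraries, and at 0.347 to 0.85 CPM in the Smad4 libraries. It differed by 3.67 (adjusted p = 0.0043) and was the only gene of 24 cytokine genes to do so. Of all genes not set aside, 2.89% differed. C3ar1, the receptor for complement fragment C3a, was at 479, 459.9 and 495 CPM against 906, 1080.2 and 812 CPM with ligand loss and at 259.9, 275 and 220.3 CPM against 187, 167 and 226 CPM with Smad4 loss, a difference of 1.36 (adjusted p = 0.0068), although its fold change of 0.97 with ligand loss was below the size threshold. Ptger4, a receptor for prostaglandin E2, was at 6.93, 7.96 and 5.33 CPM against 14.6, 18.6 and 17 CPM and at 2.96, 3.69 and 3.42 CPM against 3.15, 3.35 and 2.79 CPM, a difference of 1.44 (adjusted p = 0.016).

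The 50 genes that responded to Smad4 loss without a call for ligand loss comprised 31 that rose and 19 that fell. Their median size of change was 1.90 on the log2 scale with Smad4 loss and 0.40 with ligand loss. The 95% interval of the ligand fold change lay within -1 and 1 for 26 of the 50, and 17 had the same sign in both experiments. Control means were more than 4-fold apart for 3 of these genes, and 5 had a higher level in whole liver than in macrophages. The count moved with single libraries. It was 30, 29 and 26 without ligand control replicates 1, 2 and 3, 23 and 22 without HSC-KO replicates 1 and 2, 26, 17 and 15 without Smad4 control replicates 1, 2 and 3, and 19 without cKO replicate 1. Scaled by library size alone, 40 genes rose and 10 fell, and that scaling moved the median Smad4 fold change of all genes by 0.16.

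Of 35 cell cycle genes not set aside, 15 rose and none fell with Smad4 loss, while none rose and 3 fell with ligand loss. The fold change was lower with ligand loss for 12 of the 35 and higher for none, beside 1.14% and 1.75% of all genes not set aside. The median log2 fold change was 1.18 with Smad4 loss and -0.34 with ligand loss. Of the 12, 9 were called with Smad4 loss alone. These were Top2a, Ccnb2, Cdc20, Cdca8, Birc5, Plk1, Kif20a, Tpx2 and Stmn1, which act in G2 and mitosis or, for Stmn1, on microtubules. Top2a, Cdc20, Tpx2 and Stmn1 exceeded the ECs in the cKO libraries alone, the group where they were high. Among the listed genes without a called difference, Aurka, Cdc25c, Cenpf, Kif11, Mcm3, Ttk and Tyms also exceeded the ECs in that group alone. The counts and medians of the 35 therefore include members kept through the cKO libraries, and values without them are not given. Kif23 and Tk1 were called with ligand loss alone, and Cdk1 with neither.

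The promoters of Ccnb2, Plk1 and Cdc20 are printed because late cell cycle genes are known to pair CCAAT boxes, bound by NF-Y, with a cell cycle homology region near the start site. They are RefSeq sequences of build GRCm38.p6 at chr9:70421505-70421804 (minus strand), chr7:122159185-122159484 (plus strand) and chr4:118437294-118437593 (minus strand). Capitals mark CCAAT and the letters TTTGAA of the homology region, each searched on both strands.
Ccnb2: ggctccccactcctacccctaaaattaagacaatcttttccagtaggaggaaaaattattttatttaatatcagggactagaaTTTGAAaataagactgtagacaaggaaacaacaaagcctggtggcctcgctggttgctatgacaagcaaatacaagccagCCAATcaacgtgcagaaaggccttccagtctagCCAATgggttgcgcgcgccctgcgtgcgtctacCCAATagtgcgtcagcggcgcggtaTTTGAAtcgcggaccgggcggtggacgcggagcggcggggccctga
Plk1: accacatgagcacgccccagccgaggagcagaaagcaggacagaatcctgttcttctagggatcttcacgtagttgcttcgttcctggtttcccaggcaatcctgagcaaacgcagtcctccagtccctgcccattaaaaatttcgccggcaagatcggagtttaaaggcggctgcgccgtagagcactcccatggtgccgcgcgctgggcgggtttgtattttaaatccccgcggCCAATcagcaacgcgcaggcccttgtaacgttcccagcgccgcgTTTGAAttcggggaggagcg
Cdc20: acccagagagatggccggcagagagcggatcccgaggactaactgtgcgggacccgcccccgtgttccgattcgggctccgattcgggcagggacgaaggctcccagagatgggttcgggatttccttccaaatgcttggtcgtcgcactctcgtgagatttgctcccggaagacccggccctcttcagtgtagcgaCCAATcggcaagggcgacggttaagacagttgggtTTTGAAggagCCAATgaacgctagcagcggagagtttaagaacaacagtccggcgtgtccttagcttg
Promoter windows were at hand for 9 of the cell cycle genes that differed. Of these, 7 held CCAAT, 7 held TTTGAA and 7 (77.8%) held both, whereas of all 32851 windows 37.4% held CCAAT, 17.9% held TTTGAA and 6.95% held both. The Y box letters contain CCAAT on the opposite strand. The 3 printed genes were chosen after their values were seen, and a match does not show that a factor binds. The windows come from a list of cell cycle genes, which are known for these elements. Listed genes that did not differ were not counted, so the shares do not bear on the response to either loss.

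Ccnb2, which encodes cyclin B2, was at 11.4, 9.86 and 5.14 CPM in Smad4 controls and at 33.9, 23.1 and 17.6 CPM in cKO libraries. In the ligand experiment it was at 10.8, 15.4 and 14.6 CPM in controls and at 4.28, 6.28 and 9.98 CPM in HSC-KO libraries. The groups separated in both experiments, upward with Smad4 loss (1.53, adjusted p = 0.039) and downward, without passing the test, with ligand loss (-0.98, adjusted p = 0.069). The difference was -2.47 ± 0.52 (adjusted p = 0.027). Birc5, which encodes survivin, was at 7.95, 6.71 and 4.65 CPM against 28.5, 25.2 and 15.7 CPM with Smad4 loss and at 6.31, 5.95 and 6.42 CPM against 3.24, 3.77 and 5.69 CPM with ligand loss. It rose by 1.89 ± 0.28 (adjusted p = 0.0077) and differed by -2.39 ± 0.39 (adjusted p = 0.0093). Ccnb2 missed the threshold, with an adjusted p of 0.051 to 0.067, without ligand control replicate 2 or 3, HSC-KO replicate 1 or 2 or cKO replicate 1. With the EC markers as a covariate, Ccnb2 and Birc5 were not called (adjusted p = 0.3 and 0.12).

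Plk1, the polo-like kinase of mitotic entry, was at 2.52, 3.29 and 2.15 CPM in Smad4 controls and at 11.5, 14.2 and 4.9 CPM in cKO libraries, and at 5.06, 5.37 and 6.59 CPM against 3.07, 4.02 and 6.43 CPM in the ligand experiment. Its cKO libraries stood above the Smad4 controls, but their range covered that of the ligand controls, and it differed by -2.26 (adjusted p = 0.045). Stmn1 rose by 1.34 and differed by -1.51 (adjusted p = 0.016), and Top2a, which overlaps another gene on its strand, rose by 1.44 and differed by -1.71 (adjusted p = 0.027). Tk1, thymidine kinase of DNA synthesis, was at 67.8, 44.1 and 66.2 CPM in ligand controls and at 10.6, 16.4 and 17.9 CPM in HSC-KO libraries, against 75.1, 93 and 89.6 CPM and 105, 78.9 and 75.5 CPM in the Smad4 experiment. It fell with ligand loss by 1.99 and its Smad4 groups overlapped, with a difference of -1.99 (adjusted p = 0.0078). The replication licensing genes Mcm2 to Mcm7 and Pcna were called in neither comparison, with Smad4 fold changes of -0.03 to 0.64. Mki67, the proliferation marker, had a log2 fold change of 1.45 with Smad4 loss (adjusted p = 0.054) and a difference of -1.74 (adjusted p = 0.084), neither of which passed.

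The number of cell cycle genes that differed depended on the libraries used. It was 6 without any of the ligand controls in turn, 4, 4 and 17 without HSC-KO replicates 1, 2 and 3, 9, 5 and 5 without Smad4 control replicates 1, 2 and 3, and 4, 7 and 15 without cKO replicates 1, 2 and 3. It was 0 with the EC markers as a covariate and 22 by DESeq2. T and NK cell markers overlapped between the Smad4 groups at 78.1 to 181 CPM and 76.9 to 314 CPM. B cell markers rose without overlap, from 175 to 250 CPM in Smad4 controls to 293 to 393 CPM in cKO libraries. So did the sums of platelet and megakaryocyte, cholangiocyte and hepatocyte markers. Pan-macrophage and stellate and mural markers were lower without overlap, and the other marker lists overlapped. The part of these cells in this result was not tested.

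**Figure D3:**
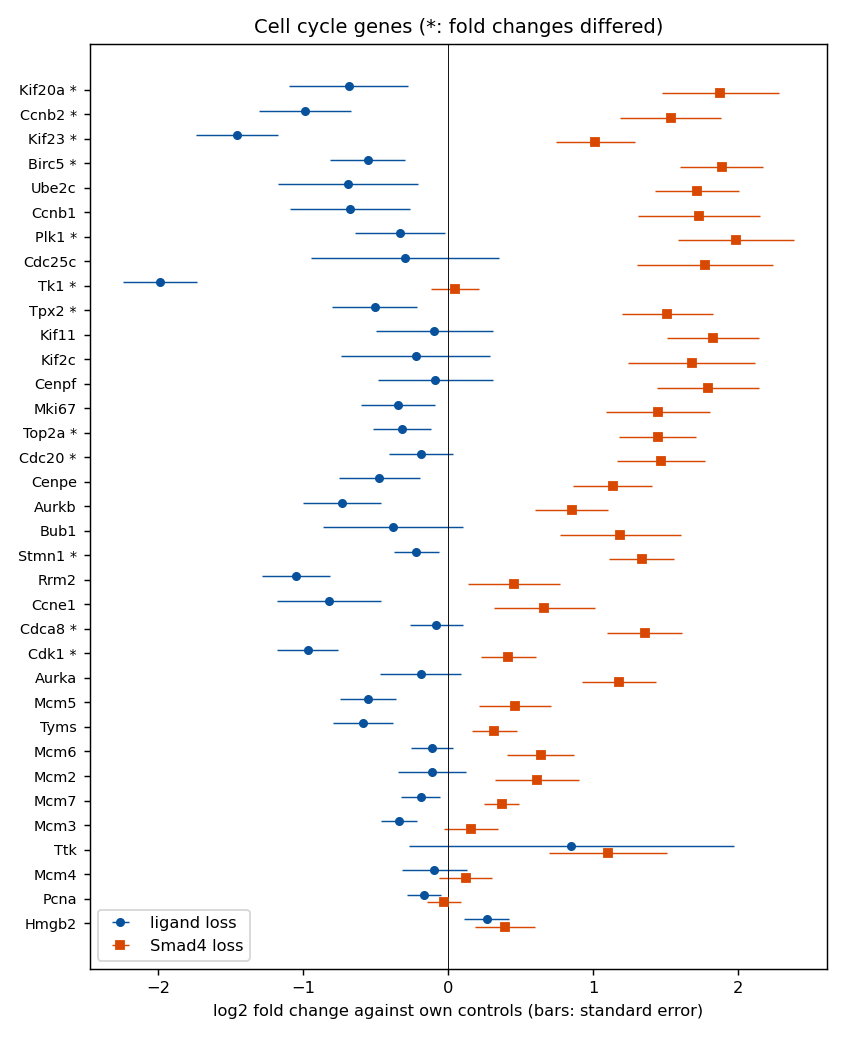
Log2 fold change with ligand loss and with Smad4 loss (x axis), with bars of 1 SE, for the 35 cell cycle genes not set aside, and an asterisk on the 12 that differed between the losses. The median over the 35 genes was 1.18 with Smad4 loss and -0.34 with ligand loss, and Mcm2 to Mcm7 and Pcna were called in neither comparison.

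Mlxipl rose with Smad4 loss alone. It encodes ChREBP, a glucose-responsive factor of glycolytic and lipogenic genes. Mlxipl (chr5:135089890-135138382) was at 0.559, 0.522 and 0.633 CPM in Smad4 controls and at 45.3, 55 and 73.4 CPM in cKO libraries, against 0.928, 0.873 and 0.527 CPM in ligand controls and 0.845, 1.86 and 1.28 CPM in HSC-KO libraries. The cKO libraries stood alone. It rose by 6.70 ± 0.25 with Smad4 loss (adjusted p = 4e-05), had a log2 fold change of 0.77 with ligand loss (adjusted p = 0.29), and differed by -5.89 ± 0.43 (adjusted p = 0.00016). Its level in whole liver was 541 CPM. The 12 hepatocyte markers summed to 1627 to 2006 CPM in Smad4 controls and to 2986 to 5405 CPM in cKO libraries, which did not overlap, and to 3498 to 4688 CPM in ligand controls and 4871 to 6141 CPM in HSC-KO libraries. Trf, which encodes transferrin, made up most of these sums and was the 1 marker called with Smad4 loss (1.67), and Alb had a mean of 183 CPM in Smad4 controls and 85.3 CPM in cKO libraries. The part of hepatocyte RNA in the Mlxipl result was not tested. Among 14 fatty acid synthesis genes, of which Mlxipl is 1, 1 rose and 1 fell with Smad4 loss.

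Nav2, a cytoskeletal protein named for neuron navigation, was at 0.644, 1.24 and 1.3 CPM against 61.5, 39.7 and 30.7 CPM with Smad4 loss and at 1.65, 1.47 and 2.39 CPM against 3.75, 2.39 and 3.85 CPM with ligand loss. It differed by -4.49 (adjusted p = 0.00083), overlaps another gene on its strand and was at 85.8 CPM in whole liver, and EC RNA would supply 44.8% of its level in Smad4 controls. Nav2 was at 24.9 CPM and Cmbl at 10.8 CPM in HSC-KO ECs, and both were not set aside only because of their levels in the cKO libraries. Nat8l, which makes N-acetylaspartate, was at 2.59, 3.16 and 4.38 CPM against 16, 14.1 and 18.3 CPM with Smad4 loss and stayed between 3.16 and 3.93 CPM in the ligand experiment, a difference of -2.34 (adjusted p = 0.002). Adamdec1, a metalloprotease of gut and tissue macrophages, was at 74.2, 77.8 and 89.2 CPM in Smad4 controls and at 399, 357 and 344 CPM in cKO libraries, and at 167, 167 and 132 CPM against 149, 146 and 235 CPM in the ligand experiment. The Smad4 groups were far apart and the ligand groups overlapped, with a rise of 2.23 ± 0.13 (adjusted p = 0.00013) and a difference of -1.99 (adjusted p = 0.002). Cmbl, a carboxymethylenebutenolidase at 149.6 CPM in whole liver, rose by 2.28 and differed by -2.60 (adjusted p = 0.035). Cmbl had an adjusted p of 0.06 to 0.085 without ligand control replicate 3, HSC-KO replicate 1 or 2, any Smad4 control replicate, or cKO replicate 1 or 3, and 0.31 with the EC markers as a covariate.

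Pla2g7 was among the genes that fell with Smad4 loss alone. This gene, which encodes the platelet-activating factor hydrolase, was at 155, 353 and 261 CPM in Smad4 controls and at 34.2, 36.8 and 35.6 CPM in cKO libraries, against 230.0, 225 and 179.9 CPM in ligand controls and 527, 338 and 338 CPM in HSC-KO libraries. It fell by 2.82 with Smad4 loss, had a log2 fold change of 0.93 with ligand loss (adjusted p = 0.017, below the size threshold), and differed by 3.79 ± 0.39 (adjusted p = 0.00053). Rtn1, a reticulon of the endoplasmic reticulum, was at 21.4, 25.1 and 16.7 CPM against 1.7, 2.42 and 2.9 CPM with Smad4 loss and at 41.3, 41.5 and 31.3 CPM against 58.8, 60.1 and 51 CPM with ligand loss. Its difference was 3.76 (adjusted p = 0.00016). In both genes the cKO libraries were the lowest of all 12 and the HSC-KO libraries the highest, except that Smad4 control replicate 2 held 353 CPM of Pla2g7.

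Scimp, an adaptor of MHC class II and Toll-like receptor signalling, was at 197, 264 and 170.4 CPM against 30.5, 32.3 and 30.1 CPM with Smad4 loss and at 148, 138 and 150.0 CPM against 105, 118 and 94.1 CPM with ligand loss. It fell by 2.73 with Smad4 loss and differed by 2.32 (adjusted p = 0.00047). Cd22, an inhibitory sialic acid-binding lectin best known from B cells, was at 20.8, 28.7 and 26.9 CPM against 6.32, 6.6 and 5.09 CPM with Smad4 loss and at 49.4, 38.8 and 41.8 CPM against 57.2, 50 and 46.2 CPM with ligand loss, and it differed by 2.34 (adjusted p = 0.0005). B cell markers summed over their list were higher in cKO than in Smad4 control libraries, as given above. Lyz2, which encodes lysozyme M, was at 13457, 14434 and 12007 CPM against 5898, 4452 and 6979.6 CPM with Smad4 loss and at 7719.8, 8629 and 7523 CPM against 9237, 9395 and 8146 CPM with ligand loss, a difference of 1.38 (adjusted p = 0.011).

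Rnase6, an antimicrobial ribonuclease, and Slfn1, an interferon-induced schlafen, differed by 2.65 and 2.47 (adjusted p = 0.018 and 0.037) with falls of 1.75 and 1.98 after Smad4 loss. Rnase6 had an adjusted p of 0.054 and 0.051 without ligand control replicate 2 and Smad4 control replicate 2. Slfn1 had 0.066 to 0.094 without ligand control replicate 1 or 2, HSC-KO replicate 2, Smad4 control replicate 1 or 2, or cKO replicate 1 or 3, and it was not called with Xist as a covariate. With the EC markers as a covariate, neither Rnase6 nor Slfn1 was called (adjusted p = 0.22 and 0.32). Slfn1 and Oasl1 were the members that differed among 23 interferon-stimulated genes. With Smad4 loss 7 of the 23 fell and none rose, with ligand loss 4 fell and none rose, and the median fold changes were -0.74 and -0.19. Irf7, the regulator of the interferon response, fell by 2.30 with Smad4 loss and by 1.56 with ligand loss, and its difference of 0.78 was not called (adjusted p = 0.33).

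Of 26 KC identity genes not set aside, 21 fell and 1 rose with ligand loss, 19 fell and 1 rose with Smad4 loss, and 6 differed, all with a deeper fall after ligand loss (Id3, Vsig4, Timd4, Clec1b, Marco and Paqr9). The median log2 fold change was -4.20 with ligand loss and -2.46 with Smad4 loss. Without HSC-KO replicate 3, 10 of the 26 differed, and 2 did with the EC markers as a covariate. Over all functions, 67 genes called in both experiments had a larger change with ligand loss (42 rose and 25 fell, with median sizes of 4.69 and 2.02), and 5 had a larger change with Smad4 loss, all of which fell (3.77 against 2.17).

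Id3 fell with both losses and further with ligand loss. It was at 1179, 983 and 998 CPM in ligand controls and at 1.83, 2.06 and 6.6 CPM in HSC-KO libraries, whereas Smad4 controls held 2139, 2077 and 1969.5 CPM and cKO libraries 369, 409 and 333 CPM. The HSC-KO libraries were nearly empty of Id3 and the cKO libraries were not. Id3 (chr4:136143497-136145755) fell by 8.23 ± 0.61 with ligand loss (adjusted p = 0.00018) and by 2.44 ± 0.13 with Smad4 loss (adjusted p = 9.7e-05), a difference of -5.74 ± 0.56 (adjusted p = 0.00047). Id3 was at 1192.5 CPM in control ECs and exceeded them in the Smad4 controls alone. EC RNA would supply 39.4% of the cKO level and 41.5% of the HSC-KO level. Id1, set aside because ECs express it more, was at 21.4, 14.2 and 9.86 CPM against 0.15, 0 and 0.0887 CPM with ligand loss and at 15.5, 15.6 and 11.8 CPM against 2.19, 1.95 and 1.31 CPM with Smad4 loss. EC RNA would supply 165% of its cKO level, which is more than was measured. Of 11 direct BMP and TGF-beta target genes not set aside, Id3 was the only one that differed, while 4 fell and 3 rose with ligand loss and 4 fell and 2 rose with Smad4 loss.

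Marco, a scavenger receptor that binds bacteria, was at 413, 247 and 492 CPM against 1.96, 0.844 and 8.25 CPM with ligand loss and at 371, 665 and 692 CPM against 172, 252 and 177 CPM with Smad4 loss. It was almost lost in HSC-KO libraries and remained in cKO libraries, with fold changes of -6.70 ± 0.89 (adjusted p = 0.0021) and -1.48 ± 0.27 (adjusted p = 0.017) and a difference of -5.17 ± 0.90 (adjusted p = 0.013) that was not called with the EC markers as a covariate (adjusted p = 0.097). Vsig4, the complement receptor CRIg, was at 3472, 3716 and 3812 CPM against 16.3, 8.26 and 48.7 CPM with ligand loss and at 2962, 3379 and 2968 CPM against 339.6, 328 and 374 CPM with Smad4 loss, a difference of -4.06 (adjusted p = 0.0086). Clec1b, the podoplanin receptor CLEC-2, was at 673, 677 and 614 CPM against 13.9, 9.73 and 29.6 CPM and at 689, 1105 and 1044 CPM against 205, 165 and 128 CPM, a difference of -2.68 (adjusted p = 0.015). In all 3 genes the cKO libraries lay between their controls and the HSC-KO libraries. Timd4, the phosphatidylserine receptor TIM-4, differed by -1.66 (adjusted p = 0.04). Clec4f, the lectin that defines mouse KCs, went the other way without passing, at 8.29, 3.32 and 16.8 CPM in HSC-KO and 1.46, 0.0339 and 0.189 CPM in cKO libraries (difference 4.23, adjusted p = 0.074). EC RNA would supply 149.8% of that cKO level, from 6.88 CPM in control ECs. The estimate thus exceeds what was measured and cannot be read as a share of it.

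Rims4, a synaptic scaffold protein, was at 9.6, 8.44 and 9.02 CPM in ligand controls and had 0 counts in all HSC-KO libraries, which is at least 259.7-fold lower when 3 counts per library are taken as the floor. In the Smad4 experiment it was at 9.19, 7.78 and 6.16 CPM in controls and at 0.163, 0.127 and 0.154 CPM in cKO libraries. Both losses thus brought Rims4 near the floor. Ptgis, the prostacyclin synthase, was at 72, 104 and 94.9 CPM against 0.451, 0.192 and 1.52 CPM with ligand loss and at 80.1, 206 and 203 CPM against 39.9, 50.9 and 14.8 CPM with Smad4 loss, a difference of -4.74 (adjusted p = 0.016). Thrb, the thyroid hormone receptor beta, was at 82.6, 78.4 and 108 CPM against 5.42, 4.13 and 7.97 CPM and at 25.5, 20 and 32.3 CPM against 4.33, 7.98 and 4.54 CPM. It ended at like levels in both knockouts from unlike control levels, and it differed by -1.73 (adjusted p = 0.046).

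Fcrls and Ccr1 rose with both losses and more with ligand loss. Fcrls, an Fc receptor-like scavenger protein, was at 0.807, 0.206 and 0.281 CPM in ligand controls and at 387, 512 and 231 CPM in HSC-KO libraries, and at 0.591, 0.478 and 0.465 CPM in Smad4 controls and 4.82, 11.8 and 7.62 CPM in cKO libraries. It rose by 9.74 and by 4.02, a difference of 5.77 ± 0.68 (adjusted p = 0.0012). Ccr1, a receptor for inflammatory CC chemokines, was at 1.07, 0.679 and 0.58 CPM against 191, 328 and 180.4 CPM with ligand loss and at 0.855, 1.98 and 1.98 CPM against 23.2, 26.6 and 37.7 CPM with Smad4 loss, a difference of 4.04 (adjusted p = 0.0018). Both genes were raised in every knockout library of either kind and were higher in each HSC-KO than in each cKO library.

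Runx3, a Runt-family transcription factor, was at 5.77, 3.59 and 2.2 CPM against 356, 221 and 203 CPM with ligand loss and at 8.54, 11.9 and 7.69 CPM against 15.9, 30.9 and 26 CPM with Smad4 loss. It rose by 6.07 and by 1.41, a difference of 4.71 (adjusted p = 0.00083). Cd63, a tetraspanin of late endosomes, was at 4.69, 6.91 and 4.68 CPM against 679, 763 and 492 CPM and at 16.5, 19 and 26.8 CPM against 186, 152 and 279.8 CPM, a difference of 3.59 (adjusted p = 0.00071). Mmp2, gelatinase A, was at 3.18, 2.62 and 2.55 CPM against 56.9, 65.5 and 56.6 CPM and at 1.59, 1.18 and 1.6 CPM against 5.4, 4.07 and 6.45 CPM, a difference of 2.57 (adjusted p = 0.0006). The order of the groups was the same in all 3 genes, with HSC-KO libraries highest and cKO libraries next.

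**Figure D4:**
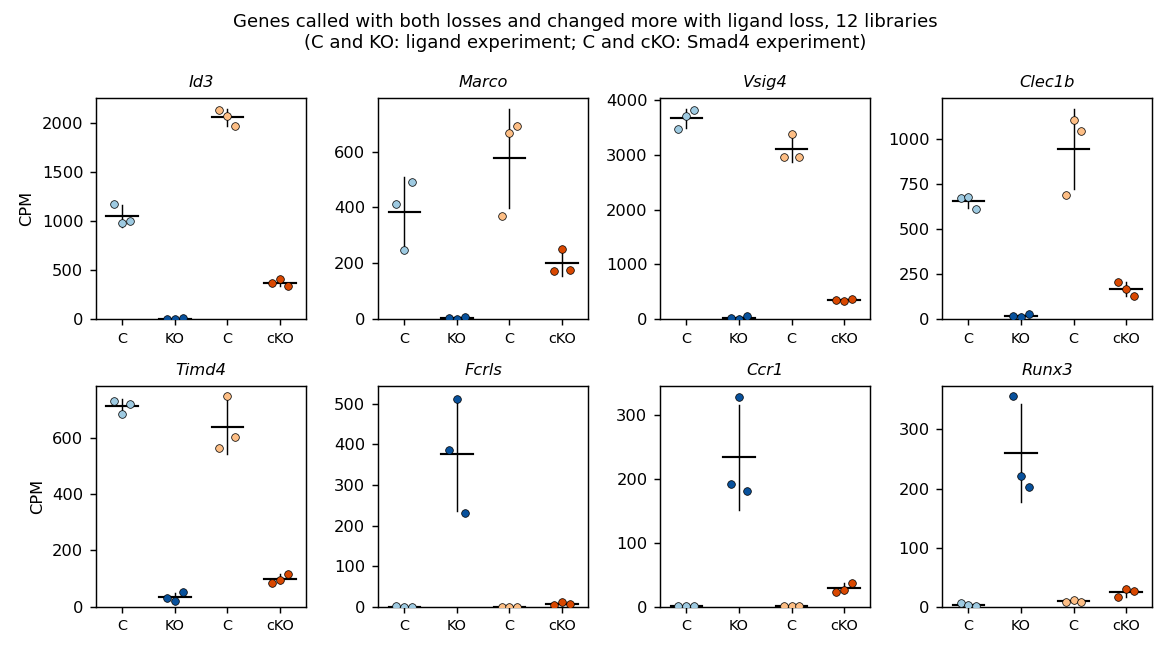
Level in CPM (y axis of each panel) in every library of the 4 groups for Id3, Marco, Vsig4, Clec1b, Timd4, Fcrls, Ccr1 and Runx3. Points are libraries and bars are the mean ± SD. In each panel the cKO libraries lie between the Smad4 controls and the HSC-KO libraries, as for Id3 at 333 to 409 CPM in cKO and 1.83 to 6.6 CPM in HSC-KO libraries.

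Mefv, which encodes the inflammasome protein pyrin, fell further with Smad4 loss. It was at 32.1, 29.6 and 23.2 CPM against 4.41, 3.77 and 5.36 CPM with ligand loss and at 16.2, 22.5 and 25.3 CPM against 0.48, 0.28 and 0.556 CPM with Smad4 loss. The falls of 2.64 and 5.57 differed by 2.98 ± 0.37 (adjusted p = 0.0016), and no cKO library reached the level of an HSC-KO library. Oasl1, an interferon-induced inhibitor of Irf7 translation, was at 112, 117 and 131 CPM against 51.5, 50.1 and 45.1 CPM with ligand loss and at 119.9, 132 and 100.02 CPM against 18.3, 11.6 and 6.17 CPM with Smad4 loss, a difference of 2.00 (adjusted p = 0.023). Procr, the protein C receptor, fell by 2.17 and by 3.77, a difference of 1.65 (adjusted p = 0.024), and EC RNA would supply 43.3% of its cKO level. These calls depended on single libraries, as Oasl1 had an adjusted p of 0.05005 to 0.065 without ligand control replicate 2 or 3, HSC-KO replicate 1 or 2, any Smad4 control replicate or cKO replicate 2, and Procr had 0.054 to 0.076 without ligand control replicate 2 or 3, Smad4 control replicate 2 or 3, or cKO replicate 1 or 3. Procr was also not called with the replicate block (adjusted p = 0.056) or with Xist as a covariate, and with the EC markers as a covariate neither gene was (adjusted p = 0.2 for Oasl1 and 0.1 for Procr).

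In both comparisons 3 genes were called with opposite directions. Ccl8, a chemokine of tissue macrophages, was at 2.41, 1.24 and 1.53 CPM against 14.1, 18.4 and 14.6 CPM with ligand loss and at 3.33, 2.27 and 4.05 CPM against 0.654, 1.44 and 0.887 CPM with Smad4 loss. It rose by 3.18 and fell by 1.65. Sh3pxd2b, a podosome scaffold protein, was at 6.16, 5.38 and 4.36 CPM against 41, 19.3 and 18.6 CPM with ligand loss and at 4.13, 5.85 and 7.9 CPM against 0.674, 1.1 and 0.993 CPM with Smad4 loss, a rise of 2.31 and a fall of 2.65. Epb41l1, a membrane skeleton protein, was at 14.3, 13.3 and 10.9 CPM against 4.64, 3.05 and 7.49 CPM with ligand loss and at 4.95, 6.5 and 7.87 CPM against 15.8, 15.7 and 15.1 CPM with Smad4 loss, a fall of 1.34 and a rise of 1.31. Within each experiment the groups of these genes did not overlap.

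Of 21 prostaglandin and leukotriene genes, 4 differed, with a higher fold change after ligand loss for Ptger4, Cysltr1 and Pla2g7 and a lower one for Ptgis. With ligand loss 3 of the 21 rose and 3 fell, and with Smad4 loss 3 rose and 4 fell. Several other lists held few differences or none. No gene differed among 14 sterol synthesis and uptake genes, 30 oxidative phosphorylation genes, 26 Toll-like and NOD-like receptors, 18 immediate early and heat shock genes or 8 growth factor genes, by edgeR's quasi-likelihood test. At an unadjusted p below 0.05 the counts were 5, 2, 10, 1 and 2 in these lists, beside 2952 of all 18149 genes tested, and DESeq2 called 2 of the receptors (Tlr9 and Tlr11) and no gene of the other lists. Of the Toll-like and NOD-like receptors, 6 rose with ligand loss and 2 fell with Smad4 loss without a called difference. Single genes differed among 19 LXR targets (Smpdl3a, -1.90, adjusted p = 0.00093), 18 nuclear receptors (Thrb) and 15 lipid-associated macrophage genes (Cd63). Among 23 complement genes 2 differed (C3ar1 and Vsig4), although 6 of the 23 fell with ligand loss and 7 with Smad4 loss. Among 32 cathepsins and lysosomal genes 3 differed (Arsb and Lyz2 higher, Glb1 lower). Arsb exceeded the ECs in the HSC-KO libraries alone. Among 8 BMP and TGF-beta receptor and Smad genes not set aside none differed by edgeR (2 at an unadjusted p below 0.05, and Tgfbr1 by DESeq2), and 14 members of that list were set aside.

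**Figure D5:**
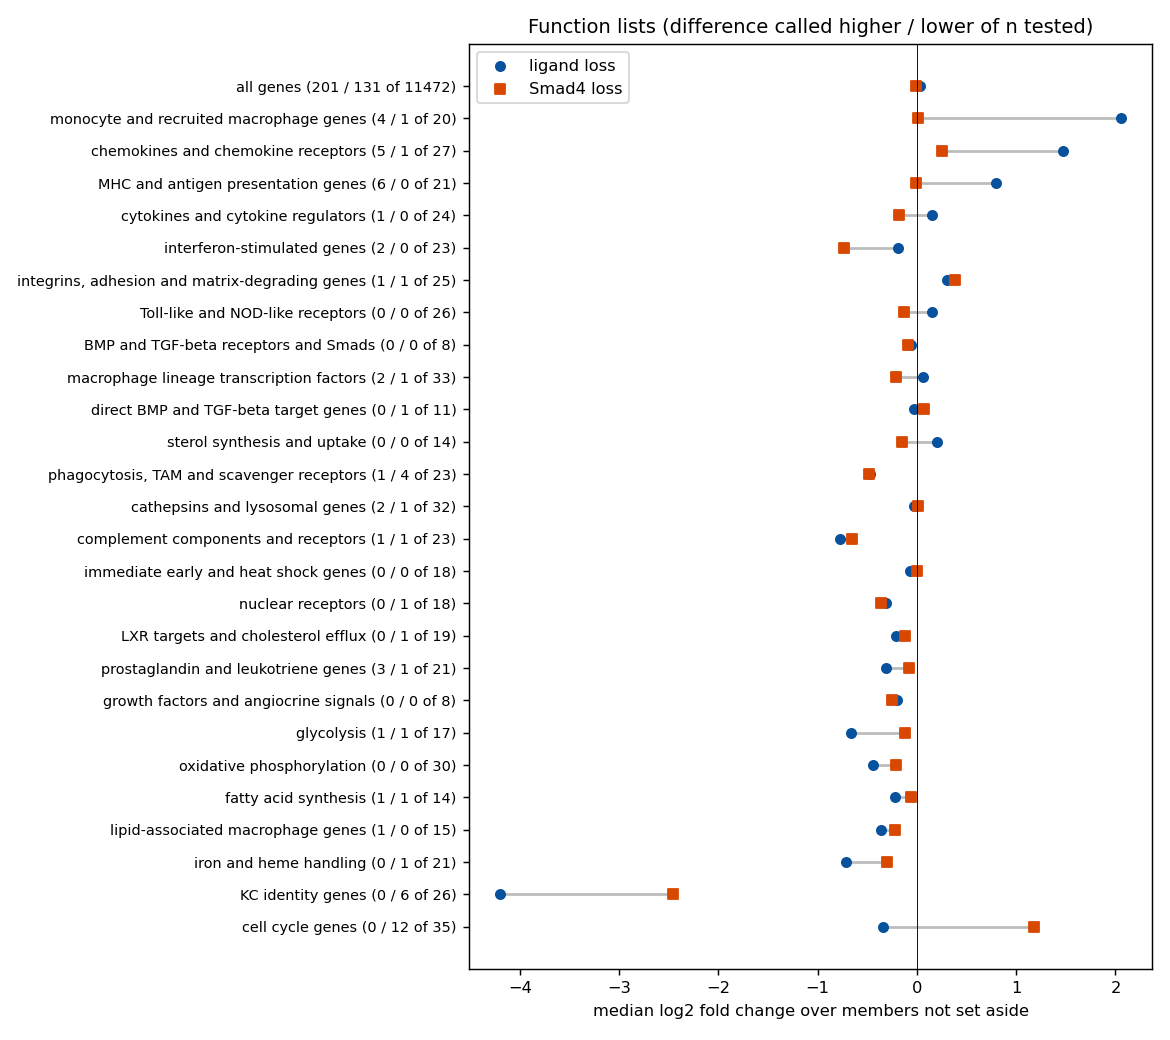
Median log2 fold change with ligand loss and with Smad4 loss (x axis) for each function list with at least 8 members not set aside (y axis), with the number of members that differed higher and lower beside the number tested. Monocyte genes (2.06 and 0.01), chemokine genes (1.47 and 0.25) and MHC genes (0.80 and -0.01) lie further to the right with ligand loss, and cell cycle genes (-0.34 and 1.18) lie to the right with Smad4 loss.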

How the data were processed

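Libraries were prepared from sorted liver macrophages and sequenced by the authors, who checked the reads with FastQC, aligned them to GRCm38 (mm10) with HISAT2 and counted them per gene with featureCounts, per the labels and the study's methods. Versions are not given in the sources used here. The deposited tables hold raw counts per gene and library. Here, both macrophage tables were joined on symbols found once in each (48337 of 48820). Genes were filtered with filterByExpr (minimum count 10, minimum total 15), scaled by TMM and tested with edgeR 4.0.16 (quasi-likelihood, Benjamini-Hochberg) in R 4.3.3, with 6 libraries per single comparison and all 12 for the difference, so the difference need not equal the subtraction of both fold changes. CPM values use the TMM-scaled library sizes.

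Genes named were the largest differences per class with a highest group mean of at least 8 CPM, control means within 4-fold and groups that do not overlap, plus members of 30 function lists and 13 marker lists. The members and lists were chosen with earlier results of these data known. Symbols were matched to GENCODE for coordinates (95.5%). The test of the difference was tried on simulated data with 200 changed genes. It recovered 85% of the changes of 3 on the log2 scale and 50% of those of 1.5, and called 7 unchanged genes. Differences of the smaller size can therefore be missed. Alternatives included DESeq2 1.42.0, other scalings and filters, a test against a log2 change of 1, covariates, a replicate block, other rules for setting genes aside, and leaving out each library in turn. Gene-level counts carry counting error, and counts per gene were not divided by gene length.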

Additional observations from a re-analysis of the deposited data

Results flagged for a closer look

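In the following genes every knockout library moved 1 way with ligand loss and the opposite way with Smad4 loss, and the difference itself was tested with edgeR's quasi-likelihood test over 12 libraries. The log2 difference was 5.01 ± 0.50 for Sh3pxd2b (adjusted p = 0.0005) and 4.88 ± 0.49 for Ccl8 (adjusted p = 0.00051), both higher with ligand loss. It was -2.60 ± 0.41 for Epb41l1 (adjusted p = 0.0069), which was higher with Smad4 loss. Over all alternatives the adjusted p did not exceed 0.0104 for Sh3pxd2b and 0.0107 for Ccl8, whereas Epb41l1 reached 0.083 with the summed EC markers as a covariate. The means of these genes lay below 30 CPM in every group. No cause was tested.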

How the results depend on the processing

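For the named genes, 703 of 776 alternative values kept their direction and their side of the threshold, 73 kept their direction and lost the call, and none reversed. The counts moved more than the named genes. By DESeq2, 1030 genes differed (464 shared with edgeR's 473), of which 343 with ligand loss alone, 107 with Smad4 loss alone and 130 with both. Tested against a log2 fold change of 1, the counts were 105, 53, 9 and 18, and 894 and 313 genes were called with ligand and Smad4 loss by themselves. With EC markers as a covariate, which partly followed the groups, they were 101, 28, 10 and 24, and 820 were called with ligand loss. Genes called with ligand loss alone numbered 260 when only genes over 20 times higher in control ECs were set aside and 262 when none was. Leaving out each library in turn gave 233 to 556 genes that differed, 99 to 181 with ligand loss alone, 15 to 54 with Smad4 loss alone and 34 to 94 with both, and 1381 to 1967 and 562 to 905 for the single comparisons of ligand and Smad4 loss. Of these lowest counts, 233, 15, 34 and 562 were reached without Smad4 control replicate 3 and 99 without Smad4 control replicate 2. Under library size alone, 650 of 1035 Smad4 calls rose, against 485 of 949. The replicate numbers did not pair the libraries (correlations of same-numbered deviations from -0.09 to 0.13), and with them as a replicate block 299 genes differed and 28 were called with Smad4 loss alone. Depth was 60911527 counts or more in every library, and the spread was measured on 3 libraries per group.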
